A study of Homo sapiens with 8 samples.

Results

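Peaks on coding exons outside promoters are peaks of MBD-seq (capture of sheared genomic DNA by the methyl-CpG-binding domain of MBD2, followed by sequencing) whose midpoint fell on a protein-coding base. A peak was included when it lay on an autosome, when its midpoint was in a coding segment (CDS) of a protein-coding gene of the GENCODE annotation in GRCh37, and when the midpoint was outside every promoter window, which ran from 1500 bp before an annotated transcription start site (TSS) to 1000 bp after it. These coding peaks numbered 29346 of the 702011 autosomal peaks in the lists of 8 neuroblastoma (NB) cell lines, and the MBD-seq score took no part in choosing them. IMR-32, N206, CHP-902R and LA-N-2 (LAN-2 in the paper) carry *MYCN* amplification (MNA), and SJNB-1, CLB-GA, SK-N-AS and SH-SY5Y are *MYCN* single copy. All 8 are established cultures of tumor cells, and each was measured as a single MBD-seq library. The lines of a *MYCN* group therefore served as its replicates, and the spread between them includes everything else in which the lines differ. Peak lists hold no expression values, so the cell type of the lines could not be set against markers here.

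DNA methylation in vertebrates is the methylation of cytosine in CpG dinucleotides. Most CpG of the genome are methylated, CpG islands at promoters are mostly not, and methylated CpG have been lost by deamination over evolution, so that the remaining CpG are dense in promoters and exons and sparse in introns and between genes. The bodies of transcribed genes are commonly methylated, and methylation of an exon has no fixed relation to whether the gene is silent. Capture by a methyl-CpG-binding domain needs several methylated CpG on a fragment, so that a peak marks sequence that is both methylated and rich enough in CpG.

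Examples of the sequence under such peaks are given first, because CpG density is the property that capture reads. Each is from the plus strand of GRCh37, 5′ to 3′, and lies inside both a coding exon and the stretch that the peaks of all the lines with a peak have in common. The capitals mark CpG. *ZNF672* (a zinc finger protein), *HECW1* (a ubiquitin ligase of the NEDD4 family) and *FZD7* (a Wnt receptor) had a peak in all 8 lines, *CENPF* (a kinetochore protein) only in the 4 MNA lines, and *KIF3B* (a subunit of the kinesin-2 motor) only in the 4 single copy lines.
ZNF672, single coding exon, chr1:249142052-249142251: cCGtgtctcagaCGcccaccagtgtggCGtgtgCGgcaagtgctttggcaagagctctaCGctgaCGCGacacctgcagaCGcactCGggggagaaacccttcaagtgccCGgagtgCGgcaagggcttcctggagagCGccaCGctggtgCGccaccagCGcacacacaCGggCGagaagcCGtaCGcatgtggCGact
HECW1, internal coding exon, chr7:43484695-43484894: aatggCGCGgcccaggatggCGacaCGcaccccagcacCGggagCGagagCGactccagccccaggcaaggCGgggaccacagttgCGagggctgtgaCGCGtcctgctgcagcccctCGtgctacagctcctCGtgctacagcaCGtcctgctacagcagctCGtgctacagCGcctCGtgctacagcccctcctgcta
FZD7, single coding exon, chr2:202900657-202900856: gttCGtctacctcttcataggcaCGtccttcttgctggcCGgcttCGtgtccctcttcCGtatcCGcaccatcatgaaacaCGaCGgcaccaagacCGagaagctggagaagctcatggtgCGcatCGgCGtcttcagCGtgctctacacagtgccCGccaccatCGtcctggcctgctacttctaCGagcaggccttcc
CENPF, internal coding exon, chr1:214816430-214816629: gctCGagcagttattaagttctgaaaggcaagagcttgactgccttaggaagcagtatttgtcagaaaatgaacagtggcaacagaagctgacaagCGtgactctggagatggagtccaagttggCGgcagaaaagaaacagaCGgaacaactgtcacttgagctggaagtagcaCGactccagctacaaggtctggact
KIF3B, coding exon with the start codon, chr20:30898215-30898414: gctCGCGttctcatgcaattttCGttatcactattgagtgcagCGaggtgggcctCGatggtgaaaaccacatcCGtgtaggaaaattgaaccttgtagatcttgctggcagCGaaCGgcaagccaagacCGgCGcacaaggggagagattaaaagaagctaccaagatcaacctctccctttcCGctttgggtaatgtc
In these 200 bp windows, *ZNF672* held 20 CpG, *HECW1* 17, *FZD7* 16, *KIF3B* 11 and *CENPF* 5. Among these 5 examples, the 3 windows shared by all lines were denser in CpG than the 2 that separated the groups. This did not hold for every region named below. In the 300 bp around the peak midpoints, *LRRN2*, with a peak in all 8 lines, had 3.33 to 5.33 CpG per 100 bp. *CNTNAP3*, with a peak only in the single copy lines, had 9.33 to 13.3. All 5 genes lie on the plus strand, so that the sequence reads in the direction of the gene.

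The number of coding peaks differed between lines by less than a factor of 1.5 and did not separate the *MYCN* groups. IMR-32 had 3677 coding peaks, N206 3504, CHP-902R 3967 and LA-N-2 4017. CLB-GA had 4315, SH-SY5Y 3809, SK-N-AS 2897 and SJNB-1 3160. The highest and the lowest numbers both belonged to single copy lines, so that the groups overlapped. Means were 3791 ± 243 coding peaks (SD) over the 4 MNA lines and 3545 ± 641 over the 4 single copy lines, a difference of 246 that did not pass a two-sided exact permutation test (p = 0.514). When every list was shortened to its 70110 best autosomal peaks by score, the difference was -313, still within the spread (exact permutation test, p = 0.457).

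As a share of the autosomal peaks of the same list, coding peaks made up 4.18% in IMR-32, 3.83% in N206, 4.09% in CHP-902R and 3.66% in LA-N-2. In the single copy lines they made up 5.60% in CLB-GA, 4.55% in SH-SY5Y, 3.41% in SK-N-AS and 4.51% in SJNB-1. The single copy lines other than SK-N-AS were above every MNA line, and SK-N-AS was below them all. The mean share of the MNA lines was 3.94% ± 0.242, and that of the single copy lines 4.52% ± 0.891 (two-sided exact permutation test, p = 0.286). When SK-N-AS was left out, the shares differed by -0.943 percentage points, with p = 0.0286, the smallest that 4 lines against 3 allow in this exact test. When CLB-GA was left out, they differed by -0.215 percentage points (exact permutation test, p = 0.571). The MNA lists were also longer, with 96544 ± 9646 autosomal peaks against 78959 ± 6827 in the single copy lists. With every list shortened to the same number of autosomal peaks, the shares differed by -0.446 percentage points (exact permutation test, p = 0.457).

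**Figure D1:**
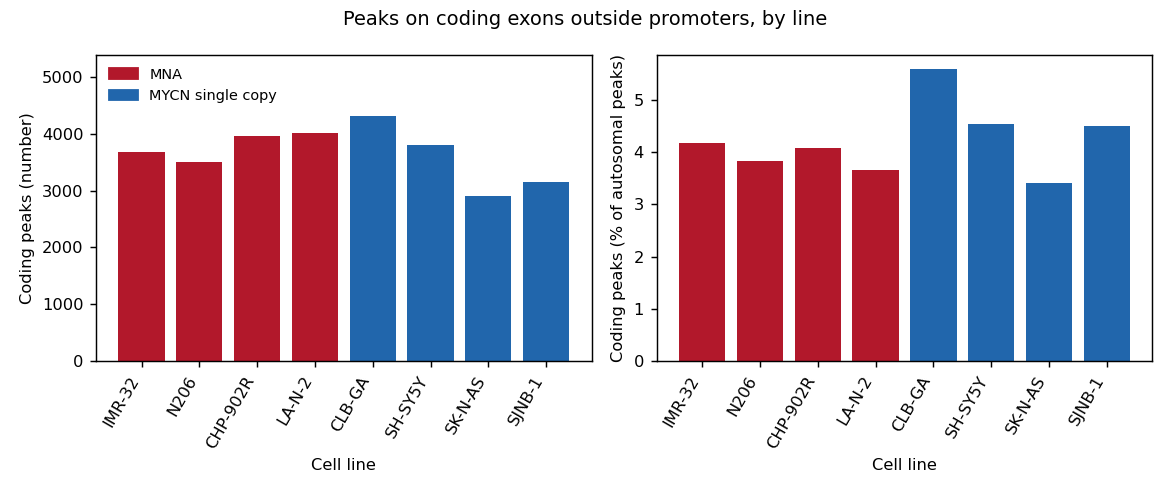
Number of coding peaks (left) and coding peaks as a percentage of the autosomal peaks of the line (right), a bar per line. CLB-GA stood highest on both panels, with 4315 peaks and 5.60%, and SK-N-AS lowest, with 2897 peaks and 3.41%.

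Among 18 measures of the coding peaks and of the lists compared between the *MYCN* groups, 0 had an adjusted p under 0.05 (Benjamini-Hochberg over the exact permutation tests), and 3 had an unadjusted p at the smallest that 4 lines against 4 allow. Those 3 were the length of the whole list, the number of autosomal peaks and the mean CpG density of the coding peaks. CpG density was counted in the 300 bp around the midpoint of a peak. The mean over coding peaks was 4.36 CpG per 100 bp in IMR-32, 4.32 in N206, 4.30 in CHP-902R and 4.37 in LA-N-2. It was 4.63 in CLB-GA, 4.39 in SH-SY5Y, 4.41 in SK-N-AS and 4.97 in SJNB-1. On this mean, all the single copy lines were above all the MNA lines, although SH-SY5Y and LA-N-2 were nearly level. The means were 4.34 ± 0.0358 and 4.60 ± 0.272 CpG per 100 bp (two-sided exact permutation test, p = 0.0286, adjusted p = 0.171). The median over coding peaks did not separate the groups (same exact test, p = 0.429). It was 3.67 CpG per 100 bp in all 4 MNA lines and also in SH-SY5Y and SK-N-AS. Only CLB-GA and SJNB-1 had a higher median, with 4.33 in SJNB-1.

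Coding sequence outside the promoter windows held far more peaks than its length would give. It covered 20.9 Mb, or 0.779% of the autosomal bases, and held 2.11% of the autosomal CpG. Coding peaks stood at 176 per Mb in IMR-32, 168 in N206, 190 in CHP-902R, 192 in LA-N-2, 206.3 in CLB-GA, 182 in SH-SY5Y, 139 in SK-N-AS and 151 in SJNB-1. Intronic bases outside the windows had between 27.6 peaks per Mb in SJNB-1 and 48.0 in LA-N-2. Every line was higher over coding sequence, and the lowest coding density was above the highest intronic density. The mean was 175 ± 22.4 coding peaks per Mb against 35.5 ± 6.17 intronic peaks per Mb (SD, n = 8 lines), and the ratio within a line was 5.03 ± 0.895, from 4.0 in LA-N-2 to 6.68 in CLB-GA. The log2 ratio of 2.31 was above 0 in 8 of 8 lines (two-sided exact permutation test with sign flips, p = 0.00781, the smallest that 8 lines allow). Intergenic sequence had 24.5 ± 3.40 peaks per Mb and promoter windows 55.2 ± 6.20, and the coding density was above both in 8 of 8 lines (same exact test, p = 0.00781 for each).

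Coding sequence was also richer in CpG, with 2.70 CpG per 100 bp against 0.946 in introns. Counted per 1000 CpG, coding peaks stood at 6.52 in IMR-32, 6.22 in N206, 7.04 in CHP-902R, 7.13 in LA-N-2, 7.65 in CLB-GA, 6.76 in SH-SY5Y, 5.14 in SK-N-AS and 5.61 in SJNB-1. Intronic peaks stood between 2.92 per 1000 CpG in SJNB-1 and 5.08 in LA-N-2. Each line was again higher over coding sequence, by 1.4 times in LA-N-2 at the least and 2.35 times in CLB-GA at the most. The means were 6.51 ± 0.8292 and 3.76 ± 0.652 per 1000 CpG, with a log2 ratio of 0.80 (8 of 8 lines, exact permutation test with sign flips, p = 0.00781). This call rested on the midpoint rule. With coding peaks defined as those with at least 50% of their width in CDS, the log2 ratio was 0.14 and no longer past the threshold (same exact test, p = 0.141). Reads from sequence that occurs more than once in the genome cannot be placed with certainty. The 45 bp around a CpG occurred once in the genome for 95.7% of the coding and 85.1% of the intronic CpG examined. With all peaks of a class divided by its estimated number of such CpG, the ratio was 1.57 ± 0.279 and above 1 in 8 of 8 lines (exact permutation test, p = 0.00781). Peaks on repeated sequence were not removed, so that this step changed the ratio of every line by the same factor.

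**Figure D2:**
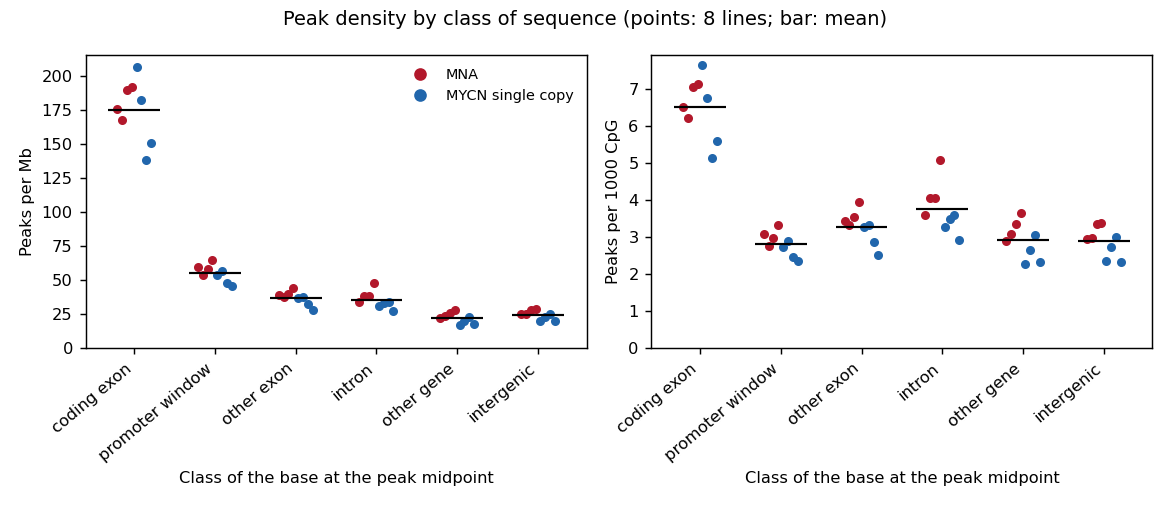
Peaks per Mb (left) and per 1000 CpG (right) of the autosomal sequence of each class, by the class of the base at the peak midpoint; points are the 8 lines, colored by *MYCN* status, and bars are means. Coding exons stood highest on both panels, at 175 per Mb and 6.51 per 1000 CpG on average.

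Comparison at equal local CpG content gave smaller differences. For bases with 3 to 5 CpG in the surrounding 300 bp, coding sequence had 32.5 ± 9.5 peaks per Mb and introns 19.3 ± 6.35, a ratio of 1.76 within lines. The ratio was 1.65 at 6 to 8 CpG and 1.46 at 9 to 11 CpG, with coding sequence higher in 8 of 8 lines in each of these bins. At 12 to 14, 15 to 17 and 18 to 20 CpG it was 1.36, 1.33 and 1.45, with coding sequence higher in 7 of 8 lines. At 21 or more CpG it was 1.92, in 8 of 8 lines. Below 3 CpG, where only 42 coding peaks lay in 5.74 Mb, coding sequence was higher in 3 of 8 lines (exact permutation test with sign flips, p = 0.797). Coding peak density itself rose from 0.915 per Mb in that bin to 533 per Mb at 12 to 14 CpG and stayed between 542 and 566 above that.

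**Figure D3:**
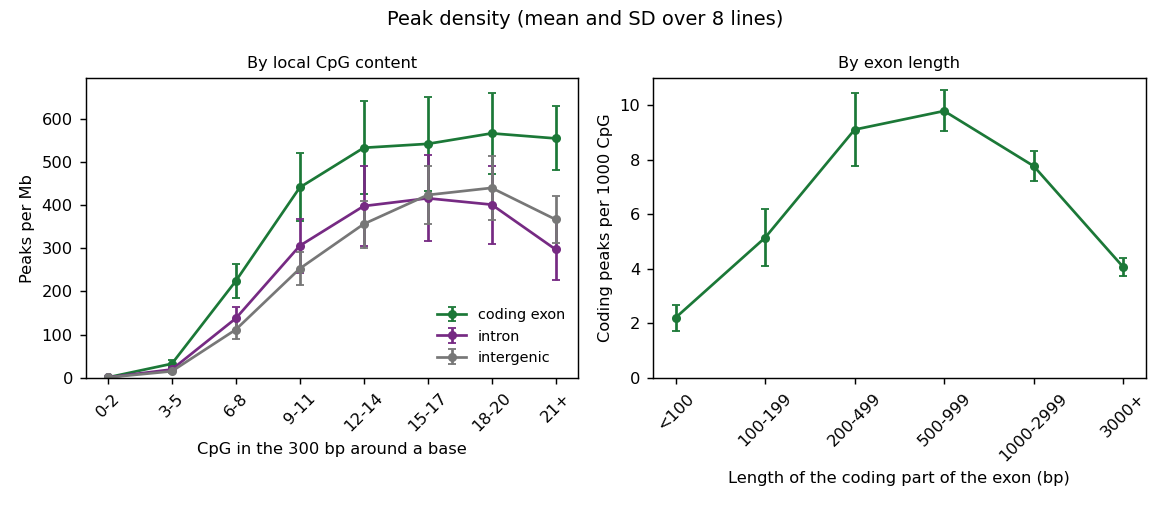
Left, peaks per Mb of coding, intronic and intergenic sequence by the number of CpG in the surrounding 300 bp; right, coding peaks per 1000 CpG by the coding length of the exon; points are means and bars SD over 8 lines. Coding exons ran above introns from the bin of 3 to 5 CpG upward, and exons from 500 to under 1000 bp stood highest on the right, at 9.80 per 1000 CpG.

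Coding peaks were also stronger and wider than intronic peaks. The score of a peak is 10 times the negative log10 of its p-value in the peak calling, has a minimum of 50 in these lists, and was compared only within a list. The median score of coding peaks was 74.3 in IMR-32 against 69.7 for intronic peaks, and 72.9 against 65.2 in SJNB-1, the smallest and the largest difference of the 8 lines. The mean difference was 5.75 ± 1.01 (8 of 8 lines higher, exact permutation test with sign flips, p = 0.00781). Ranked within its own list, the median coding peak was above 57.6% of the peaks and the median intronic peak above 47.8%. Coding peaks had a median width between 484 bp in CLB-GA and 609 bp in IMR-32, on average 93.2 ± 22.5 bp more than intronic peaks of the same line (8 of 8 lines, same exact test, p = 0.00781). Against peaks in promoter windows the difference in median width was 13.8 ± 26.0 bp and within the spread (5 of 8 lines higher, exact permutation test, p = 0.172). The median coding peak had 1.00 CpG per 100 bp more than the median intronic peak and 0.458 more than the median promoter peak, both in 8 of 8 lines (exact permutation test, p = 0.00781 for each).

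The distance to the nearest TSS had a median of 5346 bp, with 17.0% of coding peaks within 2000 bp and 51.9% at 5000 bp or more. Of all peak midpoints in CDS, 17393 (37.2%) were left out because they lay in a promoter window. Just inside the downstream edge of the window, 1734 peaks at 750 to 1000 bp from a TSS had a median score of 77.2 and 4.33 CpG per 100 bp. Just outside it, 1202 peaks at 1000 to 1250 bp had a median score of 75.3 and 4.0 CpG per 100 bp.

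The kind and the length of the exon went with the density of coding peaks. Internal exons held 59.2% of the coding peaks on 67.2% of the eligible coding sequence, which gave 155 ± 24.7 peaks per Mb (SD, n = 8 lines). Last coding exons had 239 ± 23.8 per Mb, first coding exons 268 ± 21.7 and the coding exons of single-exon genes 262 ± 17.9. Per 1000 CpG the values were 6.05 for internal, 7.69 for last, 8.17 for first and 7.56 for single exons, so that the order of internal against the other kinds was the same on both scales. First coding exons here are those beyond the promoter window, as when a gene begins with a noncoding exon.

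By length, exons with under 100 coding bp had 45.8 ± 10.1 peaks per Mb, those from 100 to under 200 bp 131 ± 26.5, those from 200 to under 500 bp 285 ± 42 and those from 500 to under 1000 bp 351 ± 26.98. Longer exons were lower again, at 238 ± 16.4 per Mb from 1000 to under 3000 bp and 86.8 ± 7.28 from 3000 bp. The CpG content ran the same way, from 2.08 CpG per 100 bp in the shortest exons to 3.58 from 500 to under 1000 bp and 2.13 in the longest, and per 1000 CpG the density still ran from 2.20 to 9.80 and down to 4.07. On exons under 100 bp the median peak had 22.2% of its width in CDS, and on exons from 3000 bp 100%. Most of the width of the peaks on short exons thus lay outside the exon, and the part of the flanking sequence in them was not tested.

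Within coding peaks, CpG at the third codon position were over-represented. The C of a CpG stood at the third position of a codon for 39.97% of the CpG of the eligible coding sequence and for 43.0% ± 0.341 of those inside coding peaks, between 42.6% and 43.5% in the 8 lines. At the first position the shares were 35.3% and 31.3% ± 0.460, and at the second 24.8% and 25.7% ± 0.332. The first position, which with the second spells the arginine codons that begin with CG, was lower inside the peaks of every line, whose highest value was 31.7%. Peaks that share a region hold the same CpG, so the lines are not independent for this measure and no test is given.

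Merging overlapping or touching peaks of the 8 lines gave 362998 autosomal regions, of which 11713 were coding regions, meaning that a coding peak was present in at least 50% of the lines with a peak there. Of the coding regions, 38.8% had a peak in 1 line only and 25.9% in at least 4 lines, with a mean of 2.63 lines. A single line was found for 56.5% of the intronic and 58.5% of the intergenic regions, with means of 1.84 and 1.83 lines. A peak in all 8 lines was present in 371 coding regions (3.17%), against 0.353% of the intronic, 0.539% of the intergenic and 1.45% of the promoter regions. Coding regions were thus the most often shared of these 4 classes. Wide peaks overlap more readily, and among peaks of 400 to 600 bp 84.9% of coding and 71.9% of intronic peaks were overlapped by a peak of another line. Lines share regions, so these shares are descriptions without a test.

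**Figure D4:**
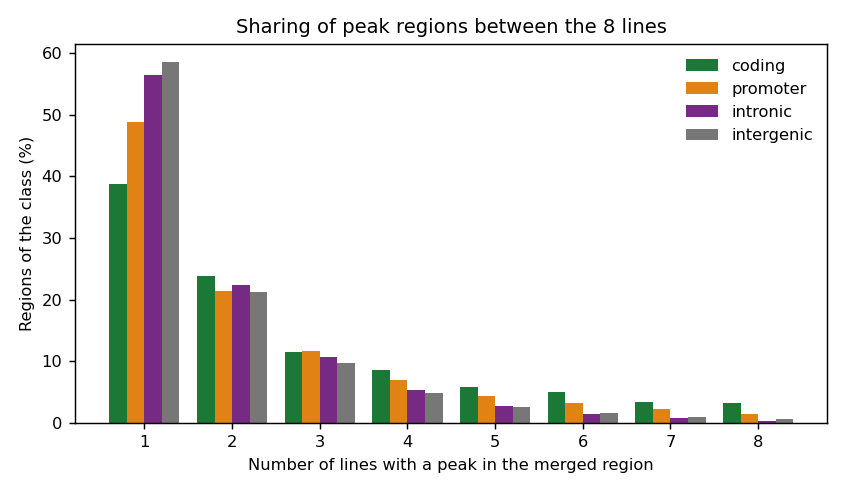
Percentage of merged regions of each class with a peak in 1 to 8 lines. Coding regions stood lowest of the 4 classes at 1 line (38.8%) and highest at 8 lines (3.17%).

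The coding regions found in all lines differed from those found in a single line in the exons they lay on. The 371 shared regions had a median coding exon of 1074 bp and 6.78 CpG per 100 bp, with 19.1% on single-exon genes and 36.7% on last exons. The 4543 regions of 1 line had a median exon of 184 bp and 3.06 CpG per 100 bp, with 1.94% on single-exon genes and 76.0% on internal exons. The peaks of the shared regions were also wider, at a median of 1099 bp against 390 bp in the regions of 1 line. A promoter peak of some line was present as well in 11.1% of the shared regions. For a pair of lines, the number of coding regions with a peak in both divided by the number with a peak in either (Jaccard index) had a median of 0.280 and a range of 0.248 to 0.304 over 28 pairs. Pairs of the same *MYCN* status had a mean of 0.278 and pairs of different status 0.279, a difference within the spread between pairs (two-sided exact permutation test over the lines, p = 0.8286).

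Ordered by how high their peaks ranked in each list on average, the leading regions shared by all 8 lines lay on *ZNF672*, *LRRN2*, *MYORG*, *HECW1*, *GUCY2D*, *PCDHA2*, *FZD1*, *FZD7*, *PCDHA4* and *PCDHA8*. *LRRN2* encodes a leucine-rich repeat membrane protein of neurons, *GUCY2D* the guanylate cyclase of the retina, *FZD1* and *FZD7* Wnt receptors, and the *PCDHA* genes protocadherins of neuronal adhesion. *MYORG* encodes a glycosidase. The peaks on *ZNF672* (GRCh37, chr1:249141020-249143245) ranked above 99.6% of the list in IMR-32, 99.5% in N206, 99.9% in CHP-902R and 99.8% in LA-N-2, and above 99.6% in CLB-GA, 99.7% in SH-SY5Y and 99.9% in SK-N-AS and SJNB-1. The 8 peaks had 1621 bp in common, which take in the whole single coding exon of 1356 bp. On *HECW1* (chr7:43483785-43485569), an internal exon of 1353 bp, the ranks ran from 98.4% in SH-SY5Y to 99.9% in N206, with 682 bp in common. On *FZD7* (chr2:202899559-202901663), the highest peak of each line ranked between 97.1% in IMR-32 and 99.5% in CHP-902R. On *LRRN2* the ranks were between 98.8% in CLB-GA and 99.9% in LA-N-2. High ranks in all 8 lines follow from the rule that chose these regions, and are no result about *MYCN* status.

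The 3 *PCDHA* regions lie in a family of related exons. Of the 45 bp windows in the region, 89.6% occurred once in the genome for *PCDHA2*, 92.5% for *PCDHA4* and 67.9% for *PCDHA8*, against 100% for *ZNF672*, *LRRN2*, *MYORG*, *HECW1* and *GUCY2D*. How reads of *PCDHA8* and of its relatives were placed was not tested. The unique share was 98.5% for *FZD1* and 99.8% for *FZD7*.

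Regions that separated the *MYCN* groups, by a peak in each line of a group and no peak in the other group, were few. Of the 11713 coding regions, 17 (0.145%) had a peak in the 4 MNA lines only, where 0.121% of all 362998 merged regions did. In the other direction, 10 coding regions (0.0854%) had a peak in the 4 single copy lines only, against 0.0394% of all regions. The share for the MNA lines was near the background, and that for the single copy lines rests on 10 regions. Only a region with a peak in exactly 4 lines can meet this condition. Such regions made up 8.52% of the coding regions and 5.41% of all regions, so that the share over all regions is not a like background. A single region can reach p = 0.0286 in a two-sided Fisher's exact test and no less, which does not survive adjustment over the regions. With a score of at least 100 required, 2 regions were left in each direction. With lists of equal length, 9 regions had a peak in the MNA lines only and 14 in the single copy lines only, so that the larger number changed sides. Leaving out any single line relaxes the demand on the rest, and gave between 30 and 47 regions for the MNA lines and between 16 and 31 for the single copy lines. Within 1 Mb of *MYCN*, where amplification adds copies of the DNA, each line had between 0 and 2 coding peaks, and 0 of the 27 regions lay on chromosome 2.

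The 8 leading regions of the MNA lines lay on *DYRK3*, *SLC6A17*, *MYLIP*, *CENPF*, *DYNLL2*, *TENM4*, *LRP1* and *JCAD*. *DYRK3* is a protein kinase, *SLC6A17* a transporter of neutral amino acids in synaptic vesicles, *MYLIP* a ubiquitin ligase of the LDL receptor, *DYNLL2* a dynein light chain, *TENM4* a teneurin of neuronal adhesion, *LRP1* an endocytic receptor and *JCAD* a protein of endothelial junctions. On *CENPF* (chr1:214816183-214816731), the peak had a score of 63.0 in IMR-32, 64.1 in N206, 112 in CHP-902R and 115 in LA-N-2, above 32.8%, 41.4%, 90.4% and 85.8% of the respective lists. On *DYRK3* (chr1:206821081-206822120), a last exon, the scores were 113 in IMR-32, 81.9 in N206, 83.4 in CHP-902R and 69.8 in LA-N-2. The 4 peaks on *DYRK3* had no base in common, and the same holds for *MYLIP* and *JCAD*. On *TENM4* (chr11:78775294-78776224) the score was 95.2 in IMR-32, 58.2 in N206, 106 in CHP-902R and 69.1 in LA-N-2, and the midpoint of the IMR-32 peak lay outside the coding sequence. *TENM4* had coding peaks elsewhere in the single copy lines too, 56 in all 8 lines together, so that the separation concerned 1 region of the gene. Among the other 9 regions of the MNA lines, named here after their values were seen, were those on *CHGB* (a protein of the secretory granules of neuroendocrine cells), *FAT2* (a giant cadherin) and *ZNF423* (a zinc finger transcription factor of neural progenitors).

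The 8 leading regions of the single copy lines lay on *CNTNAP3*, *ANKRD40*, *NFATC1*, *KIF3B*, *WSCD2*, *CRYBB1*, *MAML1* and *CKM*. *NFATC1* is a transcription factor controlled by calcineurin, *MAML1* a coactivator of NOTCH, *CRYBB1* a crystallin of the lens and *CKM* the creatine kinase of muscle. On *KIF3B* (chr20:30898025-30899110) the scores were 78.5 in CLB-GA, 86.0 in SH-SY5Y, 66.6 in SK-N-AS and 51.1 in SJNB-1, and the 4 peaks had 450 bp in common. The peak of SJNB-1 ranked above 3.56% of its list only. On *CNTNAP3*, a cell adhesion gene with close copies on chromosome 9, the scores were 60.1 in CLB-GA, 126 in SH-SY5Y, 89.8 in SK-N-AS and 151 in SJNB-1, but 61.9% of its 45 bp windows were unique in the genome. The unique share was 76.7% for *CRYBB1*. On *CNTNAP3*, only the peaks of CLB-GA and SK-N-AS were coding peaks, and not the 2 with the highest scores. Coding peaks were likewise present in 2 of 4 lines on *NFATC1* and *CRYBB1*, and among the MNA regions on *DYNLL2* and *LRP1*. The mean rank of the separating regions was between 15.2% and 74.3%, and at unknown depth a missing peak in another line cannot be told apart from a peak just under the threshold.

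Of 17174 autosomal protein-coding genes with coding sequence outside the windows, 7556 (44%) had a coding peak in some line. For 2652 genes this held in 4 or more lines, and for 386 (2.25%) in every line. The share went with the length of the eligible coding sequence, from 18.4% of genes under 500 bp to 80.9% of genes from 8000 bp. The most separate coding regions were found on *CSMD2* and *TTN* with 20 each, *FRAS1* with 17, *RYR1* with 16, *CDH23*, *TENM4* and *UNC80* with 15 each and *RYR2* with 14. These are long genes of many exons, among them the giant muscle protein titin (*TTN*), 2 calcium release channels (*RYR1*, *RYR2*), a basement membrane protein (*FRAS1*), a cadherin of the inner ear (*CDH23*) and a subunit of a neuronal sodium leak channel (*UNC80*). *TENM4* had 8 coding peaks in each of IMR-32, N206, CHP-902R and LA-N-2, 9 in CLB-GA, 4 in SH-SY5Y, 5 in SK-N-AS and 6 in SJNB-1. *TTN* had 2, 3, 9 and 5 in the MNA lines and 0, 7, 1 and 2 in the single copy lines in the same order, on 78081 eligible bp, against 9852 eligible bp in *CSMD2*.

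At the level of the gene, 13 genes (0.0757%) had a coding peak somewhere in all 4 MNA lines and in no single copy line, and 9 (0.0524%) the reverse. Among the 13, named after their values were seen, was *NTRK3*, the receptor of neurotrophin-3, with 1 coding peak in each MNA line. On an internal exon of 189 bp (chr15:88575900-88576428) it had a score of 89.8 in IMR-32, 87.2 in CHP-902R and 116 in LA-N-2, and no peak in the other 5 lines. The coding peak of N206, with a score of 57.9, lay on the last exon, where IMR-32, LA-N-2 and SK-N-AS also had a peak with its midpoint outside the coding sequence. Other genes of the 13 were *WNT5A* (a Wnt ligand), *E2F2* (a cell cycle transcription factor) and *TGFBR3* (a coreceptor of TGF-beta), and among the 9 were *KIF3B*, *MAML1* and *ANKRD40*, which also had a region that separated the groups.

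Gene families differed widely in the density of coding peaks, beside 175 ± 22.4 per Mb and 6.51 ± 0.8292 per 1000 CpG over all genes. The number of members with a coding peak is to be read against 44% of all genes in any line and 2.25% in all 8, and against the length of the genes. The SD of a list is over the 8 lines on the same genes, and does not measure the spread between its members. The clustered protocadherins, cell surface proteins of neurons whose variable exons are large and rich in CpG, had 460 ± 65 per Mb and 8.37 ± 1.18 per 1000 CpG. A coding peak was present in 41 of their 48 genes in at least 1 line and in 14 in all 8 lines, but the *PCDHG* genes count the same constant exons, and 5 of the 215 peaks lay on exons shared by up to 22 genes. Plexins and semaphorins, receptors and ligands of axon guidance, followed with 347 ± 112 per Mb. A coding peak was found in 23 of their 27 genes, with the most on *PLXNA4* (37 peaks in 8 lines, from 1 in IMR-32 to 7 in N206, CHP-902R and SH-SY5Y) and *PLXNA2* (25 peaks in 8 lines). Per 1000 CpG they had 8.85 ± 2.86, the highest of the 17 lists, with a spread between lines that overlapped the value of all genes.

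The laminins and other basement membrane proteins had 242 ± 75.6 per Mb, with a coding peak in 16 of 16 genes and in all 8 lines for *LAMA3*, *NID1*, *LAMA1* and *LAMB3*. These are long genes, and of all genes with 2000 to under 4000 eligible bp 67.1% had a coding peak. The *ADAMTS* proteases had 227 ± 54.6 and the giant cadherins of the FAT, DCHS and CELSR families 211 ± 52.3, with *FAT2*, *CELSR2* and *DCHS1* in all 8 lines. *FAT2* had 27 peaks, 9 of them in LA-N-2. Per 1000 CpG these 3 lists stood at 6.89, 6.69 and 6.67. Per Mb, the spread between lines of each of these 3 lists reached the value of all genes. Collagens, whose coding sequence is cut into many short exons, had 108 ± 28.9 per Mb and 3.97 per 1000 CpG, with 27 of 42 genes reached.

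The remaining lists spread around the value of all genes or fell below it. NOTCH receptors and ligands had 230 ± 57.7 per Mb, led by *NOTCH3* with 18 peaks in 8 lines, the pore subunits of voltage-gated calcium channels 263 ± 104, led by *CACNA1C* with 20 peaks in 7 lines, and *HOX* genes 267 ± 171. Keratins had 213 ± 133 per Mb, with a coding peak in 30 of 54 genes (55.6%). All 4 were rich in CpG, and per 1000 CpG they stood at 4.70, 5.15, 4.53 and 6.03. Histone methyltransferases and demethylases had 137 ± 52.0 per Mb, ribosomal proteins 138 ± 101 and zinc finger genes with *ZNF* symbols 134 ± 17.0, the last at 6.46 per 1000 CpG and thus at the level of all genes. The lowest values were those of the plakins and other giant cytoskeletal proteins with 75.1 ± 22, olfactory receptors with 35.9 ± 26.5 and mucins with 30.1 ± 13 per Mb. Olfactory receptors, which have 1.30 CpG per 100 bp, had a coding peak in 15 of 181 genes, and in 8 of 8 lines only for *OR10AC1*.

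**Figure D5:**
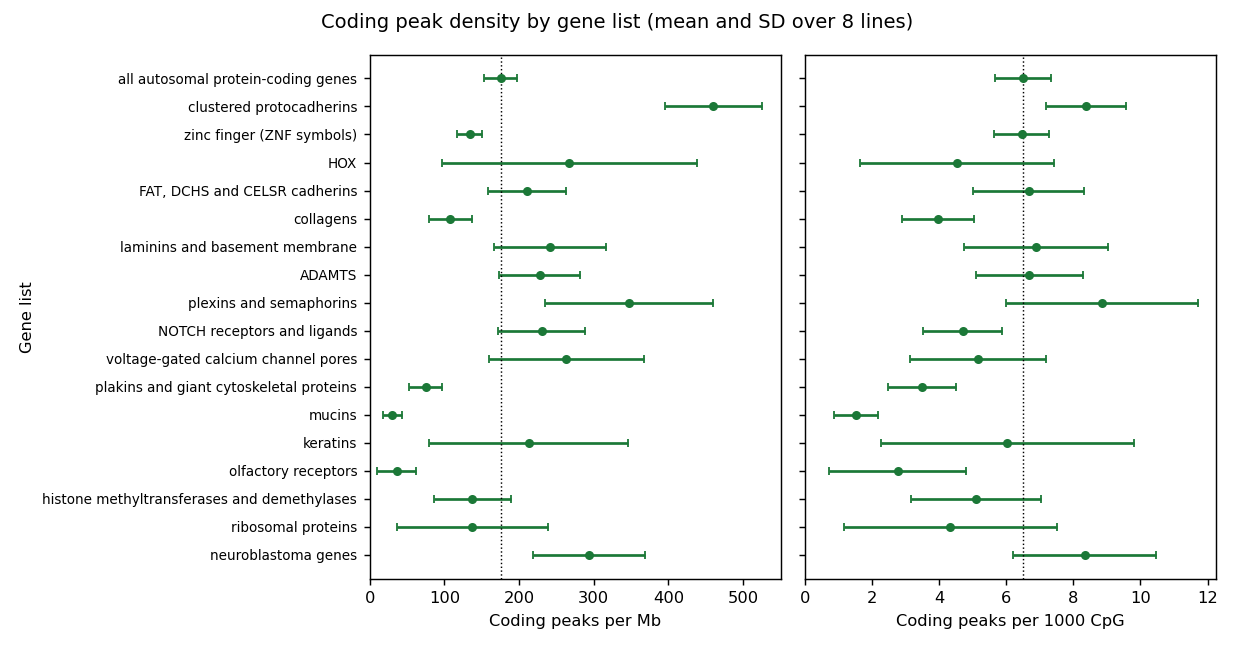
Coding peaks per Mb (left) and per 1000 CpG (right) of the eligible coding sequence by gene list, as mean and SD over 8 lines; the dotted line is the mean of all autosomal protein-coding genes. Clustered protocadherins stood highest per Mb (460) and mucins lowest on both panels (30.1 per Mb and 1.53 per 1000 CpG).

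Genes known in NB or in its cell of origin had 294 ± 75.1 coding peaks per Mb and 8.34 ± 2.13 per 1000 CpG, with a coding peak in 19 of the 24 genes that have eligible coding sequence (79.2%). The share was 44% over all genes and 57.6% over genes with 1000 to under 2000 eligible bp, and the median of the list was 1429 bp. The list held 119 coding peaks, of which 26 lay on *TIAM1* and 18 on *ALK*. Its coding sequence had 3.53 CpG per 100 bp, against 2.70 over all genes. Per 1000 CpG, the spread between lines reached the 6.51 of all genes. *TIAM1*, which encodes an activator of the GTPase Rac, had 26 coding peaks, from 2 in N206 and LA-N-2 to 6 in CLB-GA. On an internal exon of 448 bp (chr21:32623824-32624818), all 8 lines had a peak, with scores of 182 in IMR-32, 66.4 in N206, 92.7 in CHP-902R and 143 in LA-N-2, and of 148 in CLB-GA, 158 in SH-SY5Y, 206.3 in SK-N-AS and 121 in SJNB-1. The peak of N206 had its midpoint outside the coding sequence.

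*ALK*, the receptor tyrosine kinase that is mutated in familial NB, had 18 coding peaks in 8 lines, with 5 in N206, 4 in LA-N-2 and 3 in CLB-GA. Its last coding exon (chr2:29415959-29416911) had a peak in every line but SJNB-1, with scores of 52.1 in IMR-32, 67.4 in N206, 56.5 in CHP-902R, 80.5 in LA-N-2, 117 in CLB-GA, 109 in SH-SY5Y and 60.2 in SK-N-AS. The chromatin remodeling genes *ARID1A* and *ARID1B* had a long exon with a coding peak in 6 lines each. *RASSF1*, a tumor suppressor gene whose promoter is often methylated in NB, had 7 coding peaks in 6 lines on exons beyond the promoter windows.

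*PHOX2A* and *ISL1*, transcription factors of the sympathetic lineage, had no coding peak in any line on 440 and 829 eligible bp. The same was true of *LIN28B*, an inhibitor of let-7 processing, and of *CASP8*, whose 545 eligible bp held 8 CpG. Of all genes, 18.4% with under 500 eligible bp and 42.7% with 500 to under 1000 bp had a coding peak in some line. Most genes as short as *PHOX2A*, *ISL1* and *CASP8* thus had none. The coding sequence of *HAND2*, another transcription factor of this lineage, lay wholly inside promoter windows and could not be assessed. *TH* and *DBH*, enzymes of catecholamine synthesis, had 2 coding peaks each, in N206 and CLB-GA for *TH* and in CHP-902R and CLB-GA for *DBH*.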

How the data were processed

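MBD-seq libraries of 8 NB cell lines were analysed as deposited peak lists. Per the labels, sheared DNA was captured with the methyl-CpG-binding domain of MBD2, and per the submitters' processing notes reads were mapped on GRCh37 with Bowtie 0.12.7. The authors called peaks with MACS in each line, without pooling. The score that the authors deposited with each peak is 10 times the negative log10 of the MACS p-value, at least 50 in each list (p = 1e-05). The score grows with depth and was compared only within a list. Options of the peak calling and an input control are not given in the sources used here. The lists hold no read counts, and the paper gives the number of reads only as a range over the lines. Depth thus differed between lines, but the depth of each line is unknown. The absence of a peak does not show absence of methylation. No interval can be given for a single peak.

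Peaks, TSS windows and CDS of all transcripts were set against GENCODE release 44 in GRCh37 coordinates, with each base put in 1 class in the order promoter window, CDS, other exon, intron, other gene and intergenic. CpG were counted in 300 bp around the midpoint. Python 3.11.15, numpy 2.4.6, scipy 1.17.1 and pandas 2.3.3 were used. Means of the *MYCN* groups were tested by two-sided exact permutation, and classes by two-sided exact sign flips over lines. Merging and the search for separating regions were run on simulated peaks with planted regions. These peaks were placed by the same base labels that classify them, so that the assignment of classes was not tested. Members and gene lists were chosen with earlier results of these data known. Genes named were the 10 regions in all lines and up to 8 separating regions per direction by mean rank, the 8 genes with most regions, and up to 4 per list by number of lines, apart from those stated as chosen after their values were seen and members of the list of NB genes, of which not every gene is reported here. Alternatives were a score of at least 100, equal list lengths, a window to 500 bp downstream, TSS of protein-coding genes, canonical CDS, at least 50% of the peak in CDS, 1 coding line per region, and each line left out. Peaks at least 5000 bp from any TSS and unique CpG were added after the data were seen.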

Additional observations from a re-analysis of the deposited data

How the results depend on the processing

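Without read counts, a peak missing in a line cannot be told apart from methylated sequence below the threshold of the peak calling. Each line was a single library, an exact permutation test of 4 lines against 4 cannot go below p = 0.0286, and lines differ in more than *MYCN* status. The differences between coding and intronic peaks in density per Mb, median score, median width and CpG density kept their direction and stayed past the threshold under all alternatives run for them (exact permutation tests). Density per 1000 CpG did so except with at least 50% of the peak in CDS, where the log2 ratio was 0.14 (exact p = 0.141), an alternative that takes away peaks on short exons by construction. The difference in the number of coding peaks by *MYCN* status turned from 246 to -313 with equal list lengths, where shorter lists were kept whole and longer ones lost their weakest peaks. The difference in the share of coding peaks was -0.576 percentage points, and -0.943 (without SK-N-AS, exact p = 0.0286) to -0.215 (without CLB-GA) when single lines were left out. The number of separating coding regions, 27 (17 MNA, 10 single copy), was 4 (2 and 2) with a score of at least 100 and 15 (11 and 4) at 5000 bp or more from any TSS, both with fewer peaks. With equal lists it was 9 for the MNA lines and 14 for the single copy lines. Leaving out single lines gave 54 to 70 in all, 30 to 47 for the MNA lines and 16 to 31 for the single copy lines, since fewer lines had to meet the condition. MNA and single copy lines could not be paired with each other, because each line is a separate culture. Only the classes of peaks were compared within each line. The labels give no replicate numbers, and the numbers used here only name the lines within a group.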
